A study of Mus musculus with 18 samples.

Results

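The colony-stimulating factors and their receptors were followed in bone marrow-derived macrophages (BMDMs) of *Prep*-/- mice and their *Prep*+/- littermates. The family held 8 of the 16314 genes in the count table, taken by symbol: the 3 ligand genes *Csf1*, *Csf2* and *Csf3* and the 5 receptor genes *Csf1r*, *Csf2ra*, *Csf2rb*, *Csf2rb2* and *Csf3r*. The family was chosen by the low *Csf3* counts of *Prep*-/- M1 BMDMs. For that reason the *Prep*-/- against *Prep*+/- values in M1 are given for all members as a description without a test, and *Csf3* has no test in any comparison that uses M1 libraries. All 8 symbols were found, and 7 passed a filter on low counts that 12021 genes passed. *Csf2* failed this filter, and *Csf3* passed it only through the M1 libraries.

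Colony-stimulating factors are secreted cytokines that direct the production, survival and activation of myeloid cells. *Csf1* encodes M-CSF, on which macrophages depend and which signals through the receptor tyrosine kinase CSF1R. *Csf2* encodes GM-CSF, whose receptor pairs the ligand-binding alpha chain CSF2RA with the common beta chain CSF2RB. *Csf2rb2* encodes a beta chain of the mouse that serves the interleukin-3 receptor. *Csf3* encodes G-CSF, the main driver of neutrophil production, which signals through CSF3R, and macrophages are a known source of it after contact with bacterial lipopolysaccharide (LPS).

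Bone marrow cells of mice with a C57BL6/J background were expanded over 7 days in medium with 50 ng/ml of M-CSF, so that the product of *Csf1* was in the medium of every culture. The BMDMs were then left unstimulated (M0), given 50 ng/ml LPS (M1), or given 20 ng/ml interleukin-4 with 20 ng/ml interleukin-13 (M2), for 24 h. Each of the 2 genotypes had 3 biological replicates in each of the 3 states, 18 libraries of bulk mRNA in all. The knockout was global and the controls were heterozygous, with 1 intact *Prep* allele. The age of the mice used for marrow and the number of mice behind a library are not given in the sources used here.

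The libraries held between 19068237 and 22598279 counts. *Prep*, which encodes prolyl endopeptidase, was lower in *Prep*-/- BMDMs of every state, with log2 fold changes of -4.29 in M0, -3.74 in M1 and -3.77 in M2. All 14 macrophage markers checked, *Adgre1*, *Cd68* and *Csf1r* among them, had counts in each group. Replicate 3 of *Prep*-/- M0 and replicate 3 of *Prep*-/- M2 stood apart from the other libraries of their groups. Their root mean square deviation from the group mean over all genes tested was 0.396 and 0.454 on the log2 scale, against 0.162 to 0.306 in the other 16 libraries. Calls of members that rest on these libraries are given with and without them.

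In GRCm39 with the GENCODE vM39 annotation, all 8 are protein-coding genes. *Csf1* lies at chr3:107648364-107667806 on the minus strand, *Csf2* at chr11:54138097-54140493 on the minus strand, and *Csf3* at chr11:98592089-98594458 on the plus strand. *Csf1r* lies at chr18:61229714-61266535 on the plus strand, and *Csf2ra* at chr19:61212395-61216892 on the minus strand. *Csf2rb* at chr15:78209952-78238047 and *Csf2rb2* at chr15:78166707-78189921 are neighbours on opposite strands, and *Csf3r* lies at chr4:125918262-125938236 on the plus strand. An annotated gene overlaps each of *Csf1*, *Csf2*, *Csf3*, *Csf1r*, *Csf2ra*, *Csf2rb2* and *Csf3r* on the opposite strand, in each case a long noncoding RNA except for the protein-coding *Hmgxb3* at *Csf1r*. The library kit kept the strand, but whether the counting used it is not given in the sources used here, so reads of such partners may be included. *Csf2rb* and *Csf2rb2* share a stretch of 3131 aligned transcript bases with 95.1% identity, and how the authors assigned reads that fit both is likewise not given, which makes the split between them uncertain. *Csf3r* shares 2170 bases at 95.1% identity with an annotated pseudogene, *Csf1r-ps*, which has no row in the count table.

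Per kilobase of annotated exon, the receptor genes stood above the ligand genes in the mean of the 6 groups. On this scale, CPM per kilobase (CPM/kb, counts scaled for library size and exon length), *Csf1r* led with 217, followed by *Csf2ra* with 67.1, *Csf2rb2* with 41.7, *Csf2rb* with 39.6 and *Csf3r* with 18.2. *Csf3* averaged 16.1 CPM/kb, nearly all of it from 1 group, *Csf1* 0.612 and *Csf2* 0.0614. In that group, *Prep*+/- M1, *Csf3* stood at 95.3 CPM/kb, above every receptor gene but *Csf1r*, with *Csf2ra* next at 75.1. With the length of the longest transcript in place of all exons, only *Csf2rb* and *Csf2rb2* changed places, at 58.8 and 41.7 CPM/kb. The group means of *Csf1r* ran from 141 CPM/kb in *Prep*+/- M2 to 431 in *Prep*-/- M0, above those of every other member in each of the 6 groups.

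Promoter sequences, from 250 bases before to 50 after the RefSeq start (GRCm38.p6), were at hand for 5 of the 8 genes, *Csf1*, *Csf2*, *Csf2ra*, *Csf2rb2* and *Csf3r*. Of the receptors, *Csf3r* (chr4:126024409-126024708, plus strand) and *Csf2rb2* (chr15:78305672-78305971, minus strand) are shown because both were higher in *Prep*-/- BMDMs in M0 and M2, and *Csf2ra* (chr19:61228369-61228668, minus strand) because it was called different in neither. Capitals mark GAGGAA or its reverse complement, the core of the site of PU.1, a transcription factor of the myeloid lineage.
Csf3r: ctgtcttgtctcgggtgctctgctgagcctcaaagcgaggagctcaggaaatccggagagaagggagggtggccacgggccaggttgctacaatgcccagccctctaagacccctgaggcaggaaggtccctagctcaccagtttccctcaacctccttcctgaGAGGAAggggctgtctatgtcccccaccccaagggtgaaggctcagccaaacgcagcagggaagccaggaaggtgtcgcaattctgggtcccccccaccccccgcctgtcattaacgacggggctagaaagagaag
Csf2rb2: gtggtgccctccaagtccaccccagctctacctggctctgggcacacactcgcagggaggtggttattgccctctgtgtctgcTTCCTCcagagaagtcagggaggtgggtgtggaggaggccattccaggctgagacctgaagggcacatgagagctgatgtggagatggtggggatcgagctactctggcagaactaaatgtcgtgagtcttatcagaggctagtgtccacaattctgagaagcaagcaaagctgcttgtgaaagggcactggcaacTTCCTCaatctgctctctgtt
Csf2ra: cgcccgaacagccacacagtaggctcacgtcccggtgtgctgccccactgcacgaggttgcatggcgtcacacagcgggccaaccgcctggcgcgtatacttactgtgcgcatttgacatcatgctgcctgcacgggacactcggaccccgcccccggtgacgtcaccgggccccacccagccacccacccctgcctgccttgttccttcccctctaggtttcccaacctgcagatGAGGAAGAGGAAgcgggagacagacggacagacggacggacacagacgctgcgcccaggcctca

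All 3 windows held the GAGGAA core. *Csf3r* had 1 match on its own strand, starting at base -86 with the RefSeq start counted as 0, *Csf2ra* had 2 on its own strand at -14 and -8, and *Csf2rb2* had 2 on the opposite strand at -167 and 29. Neither *Csf1* nor *Csf2* had a match. Of 32851 promoter windows of the same length, 28.3% held this core on either strand. Of the other 4 motifs searched on both strands, GGGANNTTC (part of an NF-kappaB site) was found once in *Csf1*, at -153, and once in *Csf3r*, at -128, and in 3.94% of all windows. TGANTCA (AP-1), ATTTGCAT (octamer) and GAGATTCC (core of the CK-1 element) were in none of the 5 windows and in 7.81%, 1.74% and 0.904% of all. A match says only that these letters are present.

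*Csf3* was a gene of LPS-stimulated BMDMs, and its level in M1 differed between the genotypes more than that of any other member. The 3 *Prep*+/- M1 libraries held 1798, 2782 and 2501 *Csf3* counts, and the 3 *Prep*-/- M1 libraries 4, 24 and 56. In normalized counts, which are counts scaled by TMM to the mean library of 21165305, these were 2048, 3310 and 3207 against 4.40, 25.6 and 60.3. All *Prep*-/- M1 libraries were thus far below all *Prep*+/- M1 libraries, and they also differed widely among themselves. The group means were 2855 ± 701 (SD, n = 3) in *Prep*+/- M1 and 30.1 ± 28.2 (SD, n = 3) in *Prep*-/- M1. The fitted log2 fold change of *Prep*-/- against *Prep*+/- was -6.56 with a standard error of 0.471. By summed counts, *Csf3* was 93.6-fold lower in *Prep*-/- M1, with a 95% counting interval of 75.5 to 118 that covers counting error only. Without *Prep*-/- M1 replicate 3, the library with the most *Csf3*, the fitted log2 fold change was -7.56. These M1 values chose the family and carry no test. The sum of 16 granulocyte and precursor markers in M1 was 3137 to 3539 CPM in *Prep*+/- and 1968 to 2642 CPM in *Prep*-/- libraries. Of these sums, *Lcn2* alone, which encodes lipocalin-2, made up 2904 to 3242 CPM and 1897 to 2540 CPM, against 3.61 to 13.3 CPM in the M0 libraries of both genotypes. Their part in the *Csf3* values was not tested. In bulk RNA, fewer cells of a type and less RNA per cell cannot be told apart.

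Outside M1, *Csf3* was close to undetected in both genotypes. The M0 libraries held 1, 3 and 2 counts in *Prep*+/- and 0, 2 and 0 in *Prep*-/-. In M2, 1 *Prep*+/- library held 1 count, and the other 5 libraries of both genotypes held 0. A count of 0 allows up to 3 counts a library, so both genotypes were at or under this limit in M0 and in M2, and no fold change is given there. *Csf3* in M1 was above M0 in *Prep*+/- BMDMs by a ratio of 1612 (95% counting interval 740 to 4395), from 7081 against 6 counts. For *Prep*-/- BMDMs, 84 counts in M1 stood against 2 in M0, a ratio of 47.7 with an interval of 12.8 to 400. Against *Prep*-/- M2, where every library was at 0, the summed counts of *Prep*-/- M1 were at least 9.66-fold higher, taking 3 counts in each M2 library as the limit. The *Prep*-/- M1 libraries held 4, 24 and 56 counts, so the lowest of them was barely above that limit.

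*Csf2*, which encodes GM-CSF, was scarcely detected. The *Prep*+/- M1 libraries held 4, 4 and 6 counts and 1 *Prep*+/- M0 library held 2, while the other 14 libraries held 0. A count of 0 allows up to 3 counts a library, which is 2.51 to 3.85 normalized counts over the 18 libraries. The summed 14 counts of *Prep*+/- M1 against 0 in *Prep*-/- M1 set the level at least 1.73-fold higher in *Prep*+/- M1, against the limit of 3 counts per library. Against *Prep*+/- M0, the ratio in *Prep*+/- M1 was 9.56, with a counting interval of 2.2 to 86.7. With so few counts, the presence of *Csf2* mRNA in *Prep*-/- BMDMs was not detectable at this depth.

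*Csf1* was a low-abundance gene in all 6 groups, and in both genotypes it was called higher in M1 than in M0. Unstimulated *Prep*+/- BMDMs had 21.2, 25.1 and 19.5 normalized counts of it, against 93.4, 91.6 and 74.4 after LPS and 36.1, 32.0 and 87.8 after the interleukins. For *Prep*-/- BMDMs the values were 71.3, 39.9 and 24.4 without stimulation, 180, 79.0 and 121 after LPS, and 77.7, 69.8 and 225 after the interleukins. The M1 libraries lay above the M0 libraries of their genotype without overlap, while the M2 libraries of each genotype had 1 high library, replicate 3. The group means in normalized counts were 21.9 ± 2.84, 86.5 ± 10.5 and 51.9 ± 31.1 for *Prep*+/- M0, M1 and M2, and 45.2 ± 23.9, 127 ± 51.0 and 124 ± 87.5 for *Prep*-/- (SD, n = 3). For *Csf1*, in the order of these means, every pair of neighbours overlapped.

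The plot of ligand counts shows these 3 genes side by side on 1 scale.

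**Figure D1:**
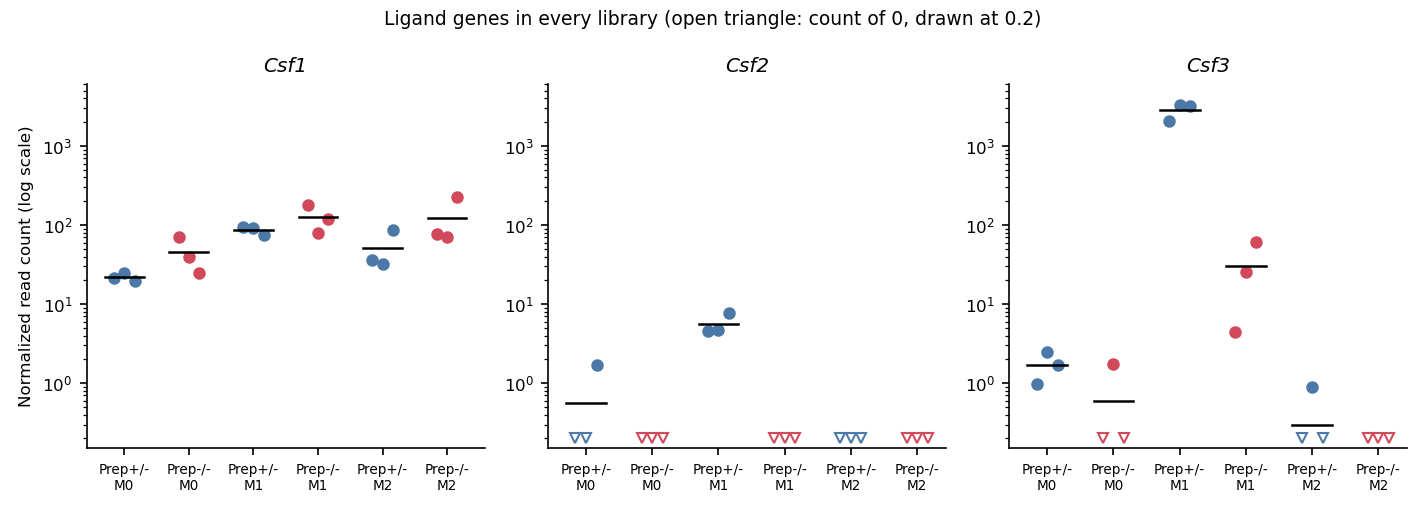
Normalized read counts of the ligand genes on a log axis, with 1 point per library, blue for *Prep*+/- and red for *Prep*-/-, a black bar for the mean of 3 libraries, and an open triangle for a count of 0. *Csf3* stands at 2048 to 3310 in *Prep*+/- M1 and at 4.40 to 60.3 in *Prep*-/- M1, *Csf2* has points in *Prep*+/- M1 and in 1 *Prep*+/- M0 library, and *Csf1* stays between 19.5 and 225 throughout.

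The receptor genes, unlike the ligands, were well counted in each library, and most of them stood higher in *Prep*-/- BMDMs. A gene was called different when its adjusted p from edgeR's quasi-likelihood test over all 12021 genes was under 0.05 and its fold change over 1.5. In M0, 4 of the 6 members that could be compared were called higher in *Prep*-/- and 0 lower. Over all genes tested, 15.4% were called higher and 17.2% lower in this comparison. The 4 were *Csf1r*, *Csf2rb*, *Csf2rb2* and *Csf3r*. In M2 these 4 were called higher again and 0 members lower, where the shares over all genes were 6.37% and 9.82%. The members were chosen after earlier results of these data were known.

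*Csf3r*, the receptor of G-CSF, had the largest difference among the receptors. The M0 libraries of *Prep*+/- had 412, 380 and 316 normalized counts of it, against 2519, 1859 and 854 for *Prep*-/-. The genotypes did not overlap, and the lowest *Prep*-/- library was replicate 3, one of those that stood apart. *Csf3r* thus had a log2 fold change of 2.24 in M0 (SE 0.356, adjusted p = 9.77e-05), a 4.73-fold higher mean level in the fit, and of 2.56 without that library (adjusted p = 1.07e-05). In M2 the normalized counts were 878, 1096 and 731 against 5098, 5688 and 2179, again without overlap and with replicate 3 as the lowest *Prep*-/- library. Its log2 fold change in M2 was 2.26 (SE 0.351, adjusted p = 2.29e-04), and 2.59 without replicate 3 of *Prep*-/- M2 (adjusted p = 1.22e-05). Over all alternatives run, the adjusted p lay between 5.8e-10 and 0.0031 in M0 and between 6.65e-10 and 0.0067 in M2. In M1, where no test was made, the values were 1520, 1204 and 1353 against 3787, 2829 and 2572, with a log2 fold change of 1.17.

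*Csf1r*, the receptor of M-CSF and a gene that defines the macrophage lineage, showed its highest level in unstimulated *Prep*-/- BMDMs. The M0 libraries held 24490, 24550 and 27670 normalized counts in *Prep*+/- and 86720, 71770 and 42950 in *Prep*-/-. Every *Prep*-/- M0 library exceeded every other library of the series, and replicate 3 was again the lowest of them. *Csf1r* was higher in *Prep*-/- M0 by a log2 fold change of 1.39 (SE 0.201, adjusted p = 4.2e-05), and of 1.62 without replicate 3 (adjusted p = 1.54e-06, range over the alternatives 6.78e-11 to 0.0152). In M2 the libraries held 21950, 23870 and 19960 against 41880, 39250 and 27510 normalized counts, without overlap. For M2 the log2 fold change was 0.72 (SE 0.198, adjusted p = 0.0137). It was 0.90 without replicate 3 of *Prep*-/- M2 (adjusted p = 0.00182), but no longer past the threshold without *Prep*-/- M2 replicate 1 (0.60, adjusted p = 0.0671) or without *Prep*+/- M2 replicate 3 (0.67, adjusted p = 0.0549). The adjusted p in M2 ranged from 1.03e-05 to 0.618 over the alternatives, the highest being a test against a fold change of 1.5. In M1 the groups overlapped at 28400, 25550 and 27830 in *Prep*+/- and 23660, 26210 and 23520 in *Prep*-/-.

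*Csf2rb*, the beta chain shared by the receptors of GM-CSF, interleukin-3 and interleukin-5, was counted in M0 at 1741, 1929 and 2074 for *Prep*+/- against 6410, 5277 and 2520 for *Prep*-/- (normalized counts). M2 gave 5459, 6846 and 6105 against 12750, 11220 and 11910. In neither state did the genotypes overlap, and *Prep*-/- M2 was the highest group of the series. *Csf2rb* had a log2 fold change of 1.31 in M0 (SE 0.231, adjusted p = 2.49e-04) and of 0.96 in M2 (SE 0.229, adjusted p = 0.00563). Without replicate 3 of the *Prep*-/- group these were 1.60 (adjusted p = 6.68e-07) and 0.98 (adjusted p = 0.00597). Over the alternatives the adjusted p ranged from 1.19e-07 to 0.0296 in M0 and from 3.42e-05 to 0.181 in M2. In M1 the untested values were 5988, 4509 and 4548 against 6820, 7383 and 6346, with a log2 fold change of 0.45.

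*Csf2rb2*, the neighbouring beta-chain gene, moved with *Csf2rb* but less firmly. The *Prep*+/- M0 libraries held 1832, 1980 and 2082 normalized counts and the *Prep*-/- M0 libraries 5566, 3920 and 1781, so that replicate 3 fell below all of the controls. Between the genotypes in M0 the log2 fold change was 0.93 (SE 0.267, adjusted p = 0.00872). It rose to 1.26 without replicate 3 (adjusted p = 2.13e-05) and dropped to 0.54 and out of the call without replicate 1 (adjusted p = 0.082), within a range of 2.96e-06 to 0.15 over the alternatives. In M2 the libraries held 3424, 3982 and 3727 against 7253, 5676 and 8529, without overlap. In M2 it amounted to 0.95 (SE 0.267, adjusted p = 0.0161). This was 0.81 without replicate 3 of *Prep*-/- M2 (adjusted p = 0.0341), and 0.90 without *Prep*+/- M2 replicate 1, where the call was lost (adjusted p = 0.0546, range over the alternatives 3.72e-04 to 0.282). In M1 the untested values were 4395, 3261 and 3506 against 5018, 4806 and 4480, with a log2 fold change of 0.36.

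*Csf2ra*, the ligand-binding chain of the GM-CSF receptor, was not called different between the genotypes. In M0 it had 3104, 3341 and 3432 normalized counts in *Prep*+/- and 3543, 3177 and 2018 in *Prep*-/-, which overlapped. This gave a log2 fold change of -0.18 with a 95% confidence interval of -0.51 to 0.16 (adjusted p = 0.375), and 0.02 without replicate 3 of *Prep*-/- M0. In M2 it had 3841, 4226 and 4258 against 5136, 4991 and 6578. The *Prep*-/- libraries were all the higher ones there, and the log2 fold change was 0.44 with an interval of 0.10 to 0.77 (adjusted p = 0.0529). Without replicate 3 of *Prep*-/- M2 it was 0.31 (adjusted p = 0.133, range over the alternatives 0.00873 to 1, with no call in any of them). In M1 the libraries overlapped, at 4853, 4290 and 4798 against 4160, 4390 and 4619.

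*Csf1* was not called between the genotypes by edgeR in either state, and DESeq2 called it higher in *Prep*-/- M2 (1.26, adjusted p = 0.0333). Its log2 fold change of *Prep*-/- against *Prep*+/- was 1.03 in M0 (95% confidence interval -0.09 to 2.16, adjusted p = 0.12) and 1.26 in M2 (0.25 to 2.27, adjusted p = 0.0644). In M2, samples with the same replicate number deviated together, and with the replicate number as a block the log2 fold change of *Csf1* was 1.21 and past the threshold (adjusted p = 0.00895). Without replicate 3 of *Prep*-/- M2 it was 0.52 (adjusted p = 0.386), and it was past the threshold without *Prep*+/- M2 replicate 3 (1.87, adjusted p = 0.0201) and without *Prep*-/- M2 replicate 2 (1.55, adjusted p = 0.0348). Over the alternatives in M2 the adjusted p ranged from 0.00895 to 0.386. In M0 *Csf1* was 1.32 without replicate 3 of *Prep*-/- M0 (adjusted p = 0.0584) and 1.31 with replicate 3 of *Prep*-/- M2 left out as well (adjusted p = 0.0178), in a range of 0.0178 to 0.465 over the alternatives.

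**Figure D2:**
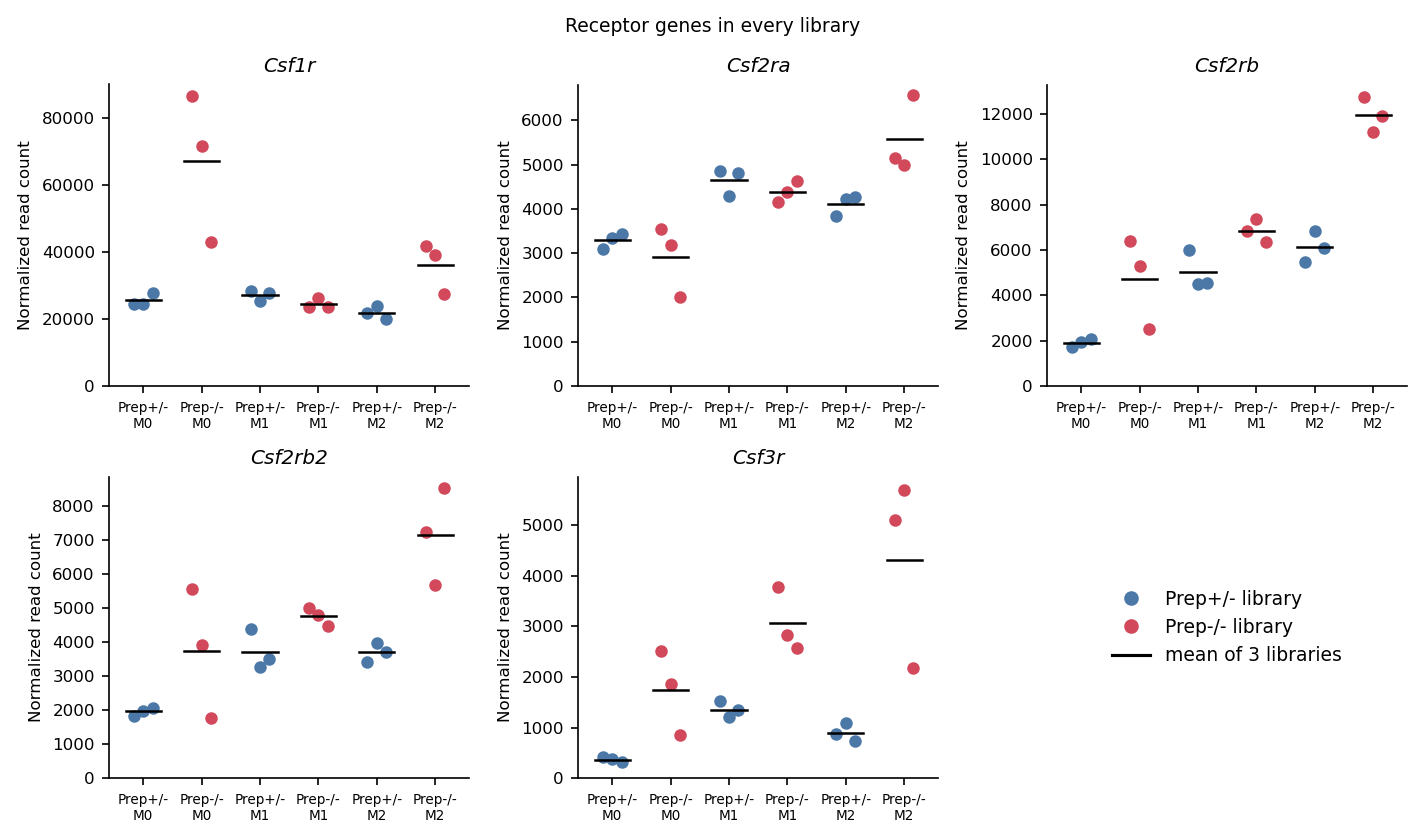
Normalized read counts of the 5 receptor genes on linear axes that start at 0, with 1 point per library, blue for *Prep*+/- and red for *Prep*-/-, and a black bar for the mean of 3 libraries. The *Prep*-/- M0 points of *Csf1r*, at 42950 to 86720, lie above all others, while *Csf2rb*, *Csf2rb2* and *Csf3r* have their highest means, 11960, 7153 and 4322, in *Prep*-/- M2.

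In M1 as a whole, 3 members (*Csf2rb*, *Csf2rb2* and *Csf3r*) had all *Prep*-/- libraries above all *Prep*+/- libraries, and 2 (*Csf2* and *Csf3*) had all of them below. Over all genes tested, the libraries did not overlap in this way for 29.8% on the higher and 27.1% on the lower side. This comparison chose the members, and nothing is read from these counts.

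**Figure D3:**
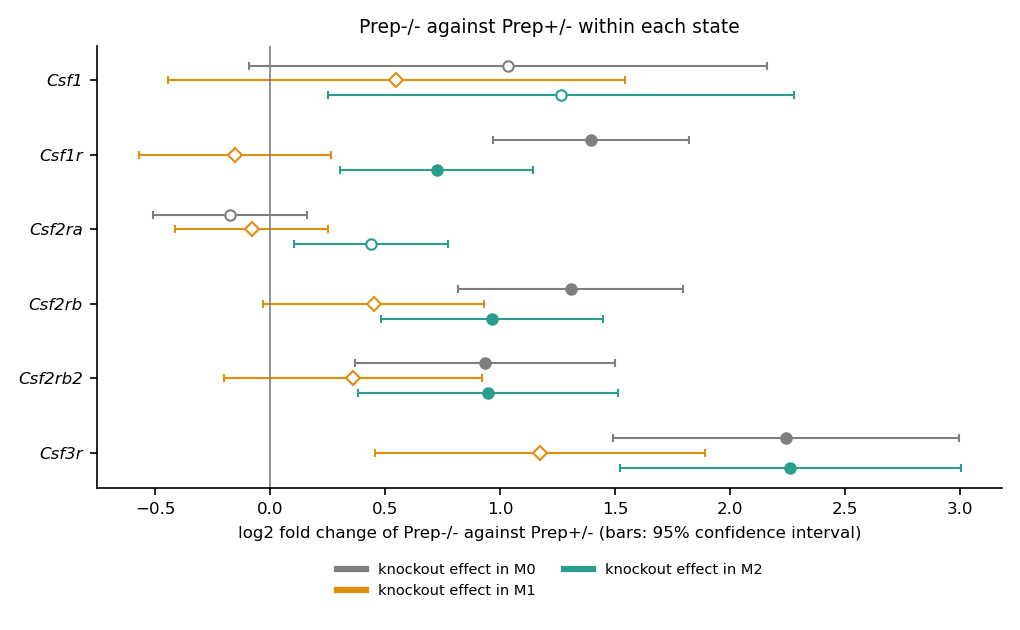
Log2 fold change of *Prep*-/- against *Prep*+/- within M0 (grey), M1 (orange) and M2 (green), with bars for the 95% confidence interval of the fit, filled circles for a call, open circles for none, and open diamonds for M1, which was not tested. *Csf3r* has the highest values, 2.24 in M0 and 2.26 in M2, and *Csf2* and *Csf3* are left out because their counts in M0 and M2 were at or near 0.

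The difference between the genotypes was then compared between M2 and M0 by an interaction term. None of the 6 members that could be compared was called in either direction by edgeR, against 4.53% of all genes on the higher and 4.13% on the lower side, while 2 members had an unadjusted p under 0.05. These were *Csf1r*, for which the difference in M2 minus that in M0 was -0.67 on the log2 scale (SE 0.279, unadjusted p = 0.0288, adjusted p = 0.142), and *Csf2ra*, with 0.62 (SE 0.224, unadjusted p = 0.0139, adjusted p = 0.0932). Without replicate 3 of *Prep*-/- M0 the value for *Csf1r* was -0.89 (adjusted p = 0.0135) and that for *Csf2rb* -0.63 (adjusted p = 0.0385), and both were called. Over the alternatives the adjusted p ranged from 0.00708 to 0.969 for *Csf1r* and from 0.0385 to 1 for *Csf2rb*. *Csf2ra* was called with DESeq2 (0.63, adjusted p = 0.0415) and without replicate 1 of *Prep*-/- M0 (0.78, adjusted p = 0.0408), in a range of 0.0408 to 1. For *Csf3r*, *Csf2rb2* and *Csf1* the values were 0.02, 0.01 and 0.23, with 95% confidence intervals of -1.01 to 1.05, -0.78 to 0.81 and -1.3 to 1.76, which leave room for differences in either direction.

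After LPS, *Csf1* and 3 of the receptor genes were higher in *Prep*+/- BMDMs than without stimulation. Against M0, 4 of the 6 members tested were called higher in *Prep*+/- M1 and 0 lower, where 16.7% and 20.9% of all genes were called higher and lower. They were *Csf1* with a log2 fold change of 1.97 (SE 0.523, adjusted p = 0.00453), *Csf3r* with 1.88 (SE 0.353, adjusted p = 2.79e-04), *Csf2rb* with 1.39 (SE 0.232, adjusted p = 9.09e-05) and *Csf2rb2* with 0.92 (SE 0.268, adjusted p = 0.00834). *Csf2ra* passed the adjusted p but not the fold change minimum, with 0.50 (SE 0.159, adjusted p = 0.0146). *Csf1r* had a log2 fold change of 0.09 and a 95% confidence interval of -0.32 to 0.51.

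In *Prep*-/- BMDMs the M1 to M0 comparison turned out differently for *Csf1r*. Here 3 of the 6 members tested were called higher and 1 lower, against 20.9% and 21% of all genes. *Csf1r* was the lower one, from a mean of 67150 ± 22250 normalized counts in M0 to 24470 in M1 (SD, n = 3), a log2 fold change of -1.46 (SE 0.201, adjusted p = 1.28e-05). Without replicate 3 of *Prep*-/- M0 it was -1.73 (adjusted p = 2.35e-07, range over the alternatives 2.02e-12 to 0.00155). The difference between the genotypes in this response holds the M1 contrast that chose the members and was not tested. The 3 called higher were *Csf1* (1.49, adjusted p = 0.0152), *Csf3r* (0.81, adjusted p = 0.0489) and *Csf2ra* (0.59, adjusted p = 0.00445). All of these 3 calls were lost without replicate 3 of *Prep*-/- M0, where the log2 fold changes were 1.16, 0.46 and 0.35 (adjusted p = 0.0684, 0.218 and 0.0139, the last short of the fold change minimum). Each of the 6 fits that left out 1 library of these groups changed the count of members called higher, to 5 without *Prep*-/- M0 replicate 1, to 0 without *Prep*-/- M0 replicate 3 and to 1 in the other 4. Over the alternatives the adjusted p ranged from 0.00272 to 0.0868 for *Csf1*, from 0.00463 to 0.28 for *Csf3r* and from 8.52e-04 to 0.532 for *Csf2ra*. Samples of these groups with the same replicate number deviated together, and with the replicate number as a block *Csf2rb* was called higher too (0.59, adjusted p = 0.0443, against 0.53 and 0.0554 without the block, and a range of 0.00673 to 0.667). In the fit with that block *Csf1* (1.47, adjusted p = 0.00272), *Csf3r* (0.88, adjusted p = 0.00463) and *Csf2ra* (0.59, adjusted p = 0.024) kept their calls.

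After interleukin-4 and interleukin-13, both beta-chain genes and *Csf3r* were higher than in M0 in both genotypes. In *Prep*+/- M2 against M0, 3 of the 6 members that could be compared were called higher and 0 lower, against 6.09% and 6.77% of all genes. *Csf2rb* had a log2 fold change of 1.68 (SE 0.233, adjusted p = 6.77e-05), *Csf3r* 1.29 (SE 0.349, adjusted p = 0.0153) and *Csf2rb2* 0.92 (SE 0.267, adjusted p = 0.0235). The *Csf2rb* call held in every alternative run. *Csf3r* lost its call without *Prep*+/- M0 replicate 3 (1.18, adjusted p = 0.0668) and without *Prep*+/- M2 replicate 2 (1.12, adjusted p = 0.0634), and *Csf2rb2* lost it in each fit that left out 1 library of these groups but that without *Prep*+/- M2 replicate 1, with 0.85 to 0.96 and an adjusted p of 0.055 to 0.0744. Over the alternatives the adjusted p ranged from 3.8e-08 to 0.122 for *Csf3r* and from 6.47e-08 to 0.382 for *Csf2rb2*. *Csf1* had a log2 fold change of 1.23 in this comparison (adjusted p = 0.122).

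Likewise, for *Prep*-/- M2 against M0, 5 of the 6 members compared were called higher and 1 lower, where 14.7% and 15.5% of all genes were. *Csf2rb* had a log2 fold change of 1.34 (adjusted p = 1.99e-04), *Csf3r* 1.31 (adjusted p = 0.00505), *Csf2ra* 0.93 (adjusted p = 1.80e-04), *Csf2rb2* 0.93 (adjusted p = 0.00953) and *Csf1* 1.46 (adjusted p = 0.0218). *Csf1r* was lower again, with -0.89 (SE 0.199, adjusted p = 0.00171). With both libraries that stood apart left out, *Csf1r* (-0.96), *Csf2rb* (1.04), *Csf3r* (1.3) and *Csf2ra* (0.59) were still called. *Csf1* then had 0.42 (adjusted p = 0.468) and *Csf2rb2* 0.45 (adjusted p = 0.0342, short of the fold change minimum), with ranges over the alternatives of 0.00783 to 0.468 and 6.58e-04 to 0.16. Each M0 group serves as the control of both stimulated groups of its genotype and enters the comparison of the genotypes in M0, so that these comparisons share libraries. In each comparison of genotypes or with M0 in which edgeR called 0 members lower, 0 had an unadjusted p under 0.05 in that direction and DESeq2 called 0.

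**Figure D4:**
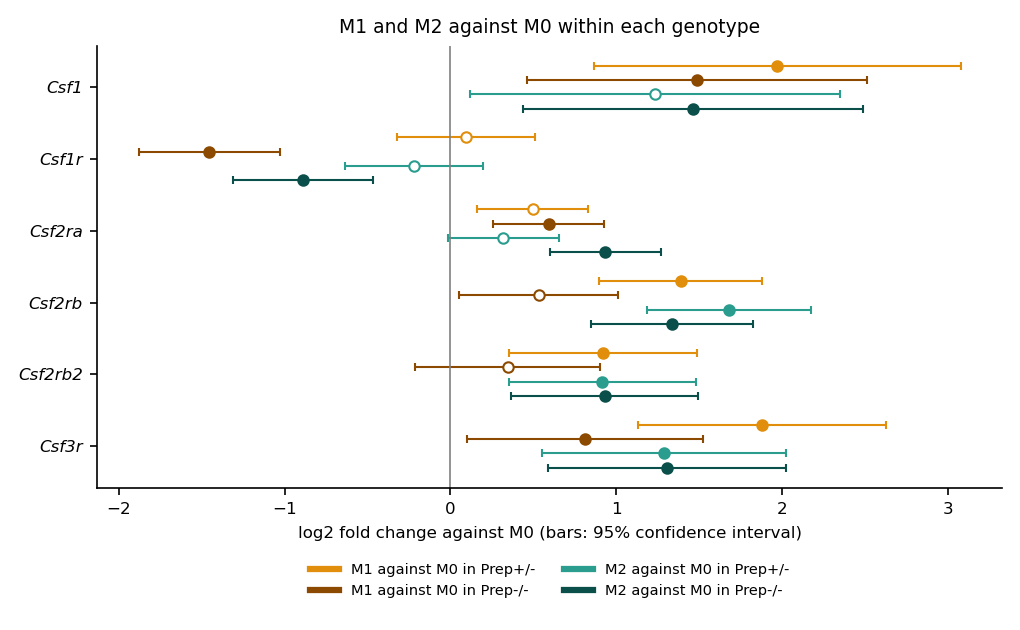
Log2 fold change of M1 (orange) and M2 (green) against M0, in the lighter shade for *Prep*+/- and the darker for *Prep*-/-, with bars for the 95% confidence interval of the fit and filled circles for a call. *Csf1r* lies near 0 in *Prep*+/- BMDMs, at 0.09 in M1 and -0.22 in M2, and below 0 in *Prep*-/-, at -1.46 and -0.89.

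M1 was also set directly against M2. In *Prep*+/- BMDMs 0 of the 6 members tested were called in either direction by edgeR, where 16.6% and 20.6% of all genes were called higher and lower in M1, and 0 had an unadjusted p under 0.05. DESeq2 called 0 as well. In *Prep*-/- BMDMs 0 were called higher and 1 lower in M1, against 19.2% and 19.3%. This was *Csf2rb*, at 6346 to 7383 normalized counts in M1 and 11220 to 12750 in M2, with a log2 fold change of -0.80 (SE 0.228, adjusted p = 0.00702), and of -0.84 without replicate 3 of *Prep*-/- M2 (adjusted p = 0.0086, range 4.67e-05 to 0.196). *Csf1r* had -0.57 there (adjusted p = 0.0239), a fold change short of the minimum, and was called without replicate 3 of *Prep*-/- M2 (-0.76, adjusted p = 0.00287) and without replicate 2 of *Prep*-/- M1 (-0.64, adjusted p = 0.0286), in a range of 1.4e-05 to 0.645. *Csf3r*, at -0.50 (adjusted p = 0.225), was called without replicate 3 of *Prep*-/- M2 (-0.85, adjusted p = 0.0207, range 6.35e-04 to 0.776), and *Csf2rb2*, at -0.59 (adjusted p = 0.0737), without replicate 2 of *Prep*-/- M2 (-0.75, adjusted p = 0.0356, range 0.0108 to 0.603).

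The order of levels over the 6 groups brings these comparisons together for each receptor. *Csf2rb* ran from 11960 normalized counts in *Prep*-/- M2 through 6849 in *Prep*-/- M1, 6137 in *Prep*+/- M2, 5015 in *Prep*+/- M1 and 4736 in *Prep*-/- M0 to 1915 in *Prep*+/- M0. Only the first and the last group stood clear of their neighbours. *Csf3r* ran from 4322 in *Prep*-/- M2 through 3063 in *Prep*-/- M1, 1744 in *Prep*-/- M0, 1359 in *Prep*+/- M1 and 902 in *Prep*+/- M2 to 369 in *Prep*+/- M0, so that the 3 *Prep*-/- means headed the list. Of these neighbours, *Prep*-/- M2 overlapped with *Prep*-/- M1 and *Prep*-/- M0 with *Prep*+/- M1, and the others did not overlap. *Csf2rb2* had *Prep*-/- M2 on top with 7153 and *Prep*+/- M0 at the bottom with 1965, and the 4 groups between them, at 3711 to 4768, overlapped with their neighbours. *Csf2ra* ranged only from 2913 in *Prep*-/- M0 to 5568 in *Prep*-/- M2. *Csf1r* had *Prep*-/- M0 clear of the rest, and the other 5 groups, at 21930 to 36210, overlapped with their neighbours. Counts scaled by library total alone, without the TMM factors, gave the same order of all 6 groups for 3 of the 8 members.

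The share of *Csf2rb* among the counts of both beta-chain genes also differed between groups. In *Prep*+/- M0 it was 48.7%, 49.4% and 49.9%, and in *Prep*-/- M0 53.5%, 57.4% and 58.6%. In *Prep*+/- it then stood at 56.5% to 58.0% in M1 and 61.5% to 63.2% in M2, so that the 3 states of the controls did not overlap. The *Prep*-/- libraries had 57.6% to 60.6% in M1 and 58.3% to 66.4% in M2, which overlapped. *Prep*+/- M0 was the only group in which *Csf2rb2* had the larger count in all 3 libraries. These shares depend on how reads common to both genes were assigned, and no test was made on them.

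**Figure D5:**
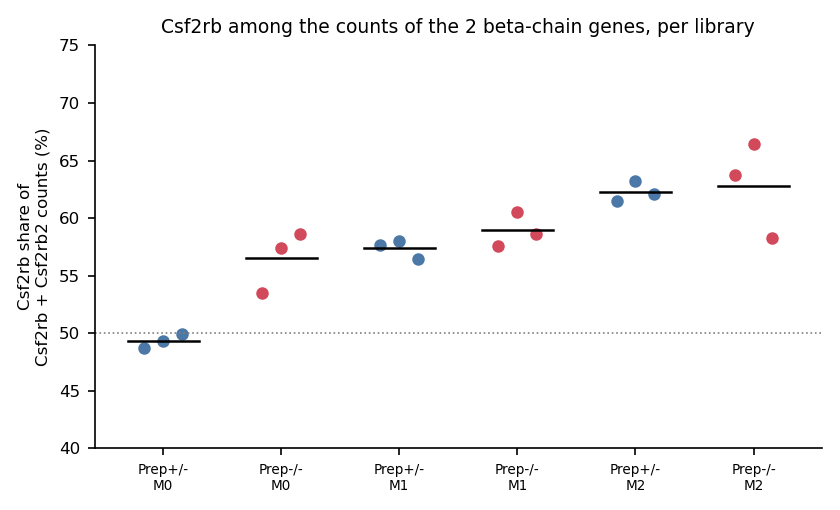
*Csf2rb* counts as a percentage of the counts of *Csf2rb* and *Csf2rb2* together, with 1 point per library, blue for *Prep*+/- and red for *Prep*-/-, a black bar for the mean of 3 libraries and a dotted line at equal counts. The axis does not start at 0, and the means rise from 49.3% in *Prep*+/- M0 to 62.8% in *Prep*-/- M2.

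Markers of other cells were summed beside the knockout differences, since *Csf3r* is known as a gene of neutrophils and their precursors. The 16 granulocyte and precursor markers summed to 79.8 to 105 CPM in *Prep*+/- M0 and 139 to 209 CPM in *Prep*-/- M0. Of them, 7 (*Camp*, *Cxcr2*, *Ltf*, *Ngp*, *Retnlg*, *S100a8* and *S100a9*) had all *Prep*-/- M0 libraries above all *Prep*+/- M0 libraries, 1 (*Cebpe*) had all of them below, and 8 overlapped. Of the 8 that overlapped, *Stfa2* was at 0 in all M0 libraries, and *Ly6g* had 2 counts in *Prep*+/- M0 and 4 in *Prep*-/- M0 over 3 libraries. In M2 the sums were 56.1 to 64.5 CPM in *Prep*+/- and 56.7 to 88.9 CPM in *Prep*-/-, which overlapped, with 3 markers all above, 1 all below and 12 overlapping, and *Ly6g* and *Stfa2* at 0. The 14 macrophage markers summed to 21880 to 25670 CPM in *Prep*+/- M0 and 35830 to 55720 CPM in *Prep*-/- M0, and without *Csf1r* to 20580 to 24510 and 33800 to 51620, with 10 of the 14 markers above without overlap. In M2 they summed to 12580 to 15000 CPM and 16530 to 23100 CPM, with 3 above and 1 below. The sums of the T and NK cell list also differed in both states, those of the B cell list only in M0 and those of the stromal list only in M2. For the 5 B cell markers they were 3.01 to 4.92 CPM in *Prep*+/- M0 and 9.08 to 11.9 CPM in *Prep*-/- M0. In M2 these sums overlapped, at 1.605 to 3.452 and 1.054 to 4.748 CPM. For the 3 T and NK cell markers, of which only *Cd4* did not overlap, they were 0.911 to 0.962 and 8.07 to 29.9 CPM in M0. In M2 they were 0.1705 to 0.5033 and 1.549 to 2.465 CPM. The 12 stromal and endothelial markers summed in M2 to 121 to 167 and 258 to 334 CPM, with 1 of the 12 (*Vwf*) all above, 2 (*Kdr* and *Pecam1*) all below and 9 overlapping. In M0 their sums overlapped, at 48.02 to 48.53 and 27.59 to 55.68 CPM, with 1 marker all above, 3 all below and 8 overlapping. The sums of the 8 dendritic cell markers overlapped in both states, with 2 markers (*Flt3* and *Siglech*) all above and 6 overlapping in M0 and 1 (*Siglech*) above and 7 overlapping in M2, and the erythroid and mast cell lists summed to at most 0.377 and 0.281 CPM in any library. The share of all genes without overlap was not determined for M0 or M2. The shares in M1, 29.8% on the higher and 27.1% on the lower side, belong to another comparison and do not stand in for it. Nothing is therefore read from these counts of markers. The part of these cells in the receptor differences was not tested.

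Genes of the same pathways were counted in lists drawn up with earlier results of these data known. Of the related ligands, 3 of 5 in the table could be tested, and in M0 *Flt3l*, the ligand of the FLT3 receptor, was higher in *Prep*-/- (0.90, adjusted p = 0.00358) while *Kitl*, the ligand of KIT, was lower (-1.35, adjusted p = 3.11e-04). The median over these 3 was 0.90 in M0, and 0.14 in M2, where 1 was called higher and 0 lower. Of the 3 related receptors tested, 2 were called higher in M0 and 1 in M2. *Il3ra*, the alpha chain with which the beta chains form the interleukin-3 receptor, was higher in both, by 1.24 (SE 0.197, adjusted p = 9.77e-05) and 0.75 (SE 0.195, adjusted p = 0.0101). The medians of all genes tested were 0.02 in M0 and 0.03 in M2, and the shares of all genes called higher and lower, against which these and the following counts are to be read, were 15.4% and 17.2% in M0 and 6.37% and 9.82% in M2.

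Downstream of the receptors, JAK kinases phosphorylate STAT factors and SOCS proteins switch the signal off. Of the 17 genes of this list, 6 were called higher in *Prep*-/- M0 and 0 lower, with a median of 0.54, and 1 was called higher in M2 and 0 lower, with a median of 0.30. *Socs3*, the feedback inhibitor of the G-CSF receptor, was higher in M0 by 1.53 (adjusted p = 4.17e-05), and *Socs6* and *Stat3* by 1.12 (adjusted p = 1.13e-05) and 0.96 (adjusted p = 9.08e-06). Of the 24 genes of receptor-proximal signalling, 4 were called higher and 1 lower in each of M0 and M2, with medians of 0.35 and 0.18, where 15.4% of all genes were called higher in M0 and 6.37% in M2. The adaptor *Themis2* was higher (0.91, adjusted p = 0.00213) and the adaptor *Dok2*, an inhibitor of receptor signalling, lower in M0 (-0.96, adjusted p = 0.00797), and *Pik3cg*, a catalytic subunit of phosphoinositide 3-kinase, lower in M2 (-1.01, adjusted p = 0.00903).

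Transcription factors known at ligand genes were called in both directions. Of 19, 5 were higher and 5 lower in *Prep*-/- M0 (median 0.35), and 2 were higher and 1 lower in M2 (median 0.15). *Nfkbiz*, a cofactor of NF-kappaB, was higher in M0 (1.62, adjusted p = 1.3e-04), whereas *Ets2* (-1.66, adjusted p = 0.00376) and *Fos*, a subunit of AP-1 (-1.45, adjusted p = 0.0121), were lower. For *Fos* the genotypes overlapped in M0, at 564 to 1564 normalized counts in *Prep*+/- and 259 to 623 in *Prep*-/-. *Ets2* stands in both lists of transcription factors. Of the 14 factors of receptor genes tested, 3 were higher and 3 lower in M0 (median 0.09), and 1 was higher and 0 lower in M2 (median 0.07). *Irf8*, a factor of monocyte and macrophage development, was higher by 1.26 in M0 (SE 0.154, adjusted p = 9.96e-06), and *Egr1* was lower by a log2 value of -3.77 with a standard error of 1.03 (adjusted p = 0.00652). The *Prep*+/- M0 libraries spread widely for *Egr1*, from 153.4 to 2546 normalized counts, against 49.61 to 136.5 in *Prep*-/- M0.

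The mRNA decay list held genes linked to the control of cytokine mRNA, *Csf3* among the known targets of some. It is not a list of destabilising factors alone, since it also holds *Elavl1* and *Tnfaip3*. Of its 12 genes, 3 were higher and 1 lower in *Prep*-/- M0 (median 0.40), and 2 were higher and 0 lower in M2 (median 0.20), beside 15.4% and 17.2% of all genes in M0 and 6.37% and 9.82% in M2. *Zfp36l1* was higher in M0 (1.49, adjusted p = 2.41e-05) and *Zfp36l2* in M2 (0.85, adjusted p = 0.0037), and *Hnrnpd*, which encodes AUF1, was lower in M0 (-0.97, adjusted p = 2.03e-05). Of the 7 genes linked to shedding of M-CSF and its receptor from the cell surface, 1 was higher and 1 lower in M0 (median 0.05) and 2 were higher and 0 lower in M2 (median 0.23). These were *Rhbdf1* in M0 (1.14, adjusted p = 0.00164) and *Tspan5* (0.98, adjusted p = 2.74e-05) and *Rhbdf2* (0.85, adjusted p = 1.73e-04) in M2, and the gene lower in M0 was the protease *Adam10* (-0.72, adjusted p = 7.15e-05), named after its value was seen. With both libraries that stood apart left out, 9 of the JAK and STAT list and 9 of the receptor-proximal list were called higher in M0, and 4 and 4 in M2. The mRNA decay list then had 5 called higher in M0 and 3 in M2, the factors of ligand genes had 3 called lower in M2, and the factors of receptor genes had 2 called higher and 2 lower in M2. Over all genes, that fit called 4377 in M0 and 2778 in M2 in either direction, against 3913 and 1947 in the fit of all libraries. Its shares by direction were not determined, so the higher counts are not read as a result about the lists. Every gene named from the 8 lists was still called in that fit, in the state for which its value is given.

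The genes whose levels ran most closely with each member were ranked by Pearson's r of log2 CPM over the 18 libraries, among 12020 other genes. Libraries of a group share their condition, so that these values are a description. *Csf2rb* and *Csf2rb2* were each other's closest gene, with r = 0.962. For *Csf3r* the closest were *Ticam2* (0.964), *Crtc2* (0.948) and *Tbc1d2b* (0.942), and *Csf2rb* stood at 0.869. For *Csf3* they were *Shisa3* (0.986), *Stfa3* (0.984) and *Draxin* (0.974), all of them at 0 or near it outside M1, as *Csf3* was. In normalized counts, *Shisa3* stood at 88.9 ± 19 in *Prep*+/- M1 against 4.32 ± 1.04 in *Prep*-/- M1 (SD, n = 3). It was picked by its likeness to *Csf3* over the same libraries, so this difference follows from the choice and adds nothing to that of *Csf3*. Ranked by Spearman's rho instead, the closest 3 genes of *Csf3* held 0 of those named here.

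For *Csf1r* the closest genes were *Tmcc1* (0.942), *Napsa* (0.935) and *Vsir* (0.927), for *Csf2ra* *Tut1* (0.951), *Limk1* (0.945) and *Sec23ip* (0.944), and for *Csf1* *Itpkb* (0.944), *Chmp1b* (0.933) and *Cd53* (0.918). After *Csf2rb2*, *Csf2rb* ran closest with *Ceacam19* (0.954) and *Nrbf2* (0.952), and *Csf2rb2* after *Csf2rb* with *Clint1* (0.938) and *Mfhas1* (0.929). Within the family, *Csf1r* had r between -0.281 and 0.356 with the other members, and *Csf3* between -0.23 and 0.298. By Spearman's rho, 7 of the 21 genes named in this way remained among the closest 3 of their member.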

How the data were processed

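According to the submitters' processing notes and the study's methods, reads were trimmed (Trimmomatic 0.36), mapped to GRCm39 (HISAT2 2.2.1.0) and counted (stringtie2). The authors deposited raw counts per gene symbol for 18 libraries (19068237 to 22598279 counts each). The annotation release, strand setting and handling of multi-mapping reads are not given in the sources used here. Groups and replicate numbers came from the sample labels, and 0 sample columns were left without a sample. Everything after the counts was computed here with edgeR 4.0.16, limma 3.58.1 and R 4.3.3. Genes were filtered with filterByExpr (12021 of 16314 kept), scaled by TMM (factors 0.818 to 1.20) and fitted with 1 coefficient per group over all 18 libraries, followed by quasi-likelihood tests with Benjamini-Hochberg adjustment over all genes tested. The common biological coefficient of variation was 0.167. To be called, a gene needed a fold change over 1.5 at an adjusted p under 0.05. The study used DESeq2, run here as an alternative (1.42.0). Counting intervals were exact Poisson intervals at 95%, and a count of 0 was taken to allow 3 counts a library.

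The members and the lists were chosen with earlier results of these data known. Named list genes were, per list, up to 3 called in M0 or M2 with the largest absolute log2 fold change and at least 5 CPM. Named genes of like pattern were the 3 with the highest Pearson's r for each member. Replicates are the biological replicates of the study, and no label ties a number to an animal or a day. Deviations from the group means of same-numbered libraries correlated over 0.1 in all 3 pairs for *Prep*-/- against *Prep*+/- in M2 (r = 0.249, 0.255 and 0.462) and for M1 against M0 in *Prep*-/- (0.201, 0.169 and 0.259), and in no other comparison. No pair of replicates agreed within sampling noise (lowest chi-square per degree of freedom 9.87). Promoter sequences were RefSeq's (GRCm38.p6), and similar transcripts were found with blastn 2.17.0 in GENCODE vM39.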

Additional observations from a re-analysis of the deposited data

How the results depend on the processing

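The 4 members called higher in *Prep*-/- against *Prep*+/- BMDMs in M0 stayed within 1.5 times of that number in every alternative run, and so did the 4 in M2 except in a test against a fold change of 1.5 (glmTreat), which called 1. Of the values of single members under all alternatives, 815 stayed the same, which for tested ones means the same direction and side of the threshold. For untested ones it means a move within the spread between replicates. Of the others, 57 lost and 30 gained a call, and 5 untested ones moved by more than that spread. A further 28 changed sign, none of these called in the fit as reported. The cause of these changes was not tested, except that glmTreat asks for more than the fold change minimum and that fits without a library hold fewer samples. When 1 group was left with 2 libraries, its spread was pooled with the other groups.

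Against M0, members called higher in *Prep*-/- M1 numbered 3 as reported, 0 with glmTreat, 1 with RLE size factors, 1 in a fit of only the libraries compared, 1 without both libraries that stood apart (an alternative chosen after seeing the data), and 0 to 5 when 1 library was left out. For *Prep*-/- M2 they numbered 5 as reported, 3 with glmTreat, 2 in a fit of only the libraries compared, 2 with the replicate block in that fit, and 3 without both libraries, and the 1 called lower became 0 with glmTreat and 0 in a fit of only the libraries compared. In *Prep*+/- M2 they numbered 3 as reported, 1 with glmTreat and 1 to 3 when 1 library was left out. Between M1 and M2 in *Prep*+/- BMDMs, 1 member (*Csf3r*) was called higher in a fit of only the libraries compared and 1 with the replicate block, and 0 to 1 when 1 library was left out, the 1 being without *Prep*+/- M2 replicate 3. In *Prep*-/- BMDMs the 1 called lower in M1 than in M2 became 2 without a fold change minimum, 0 with glmTreat, 2 in a fit of only the libraries compared, 3 without both libraries, 2 with DESeq2, and 1 to 3 when 1 library was left out. For the difference of the genotype comparison between M2 and M0, 1 member was called higher with DESeq2 and 0 to 1 when 1 library was left out, and 2 lower without both libraries and 0 to 2 when 1 was left out. Counts scaled by library total alone gave the same order of the 6 groups for 3 members, and 7 of the closest genes were shared with Spearman's rho.

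The log2 values that changed sign were these. For *Csf2ra* in *Prep*-/- against *Prep*+/- M0 it became 0.01817 without both libraries and ran from -0.3406 to 0.0181 when 1 library was left out. For *Csf2rb2* in *Prep*-/- M1 against M0 it became -0.0215 without both libraries and ran from -0.02129 to 0.742 when 1 was left out. For *Csf2rb2* in *Prep*+/- M1 against M2 it became -0.0001875 without the filter on low counts and -0.1731 for the sum with *Csf2rb*, and ran from -0.1359 to 0.07729 when 1 was left out. For *Csf1* in *Prep*-/- M1 against M2 it ran from -0.3356 to 0.7459 when 1 was left out. For the difference between M2 and M0, *Csf1* became -0.7884 without both libraries and ran from -0.5063 to 0.8371. In that comparison *Csf2rb2* became -0.01283 in a fit of only the libraries compared, -0.4431 without both libraries and -0.1732 for the sum with *Csf2rb*, and ran from -0.3081 to 0.4081, and *Csf3r* ran from -0.2862 to 0.3806.

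The replicate block was fitted on only the libraries compared. In the comparisons where same-numbered libraries share only a number, it ended the call of *Csf2ra* in *Prep*-/- M2 against M0 (0.95, adjusted p = 0.0549, against 0.93 and 0.0234 in the same libraries without the block). Calls of *Csf2rb2* between the genotypes in M0 (0.92, adjusted p = 0.0617) and of *Csf1* and *Csf2rb2* in *Prep*-/- M2 against M0 (1.46 and 0.92, adjusted p = 0.0962 and 0.109) were already lost in those libraries without the block, and with it they had an adjusted p of 0.125, 0.193 and 0.123. Calls of *Csf1* in *Prep*+/- M2 against M0 (1.25, adjusted p = 0.0366) and of *Csf3r* in *Prep*+/- M1 against M2 (0.63, adjusted p = 0.00257) were likewise gained without the block, and with it they had an adjusted p of 0.0105 and 0.00588. Of the 6 libraries compared, 0, 4 and 4 correlated best with the library of their own number in the comparisons of the genotypes in M0, of M2 with M0 in *Prep*-/- and of M2 with M0 in *Prep*+/-. For M1 against M2 these were 5 in *Prep*-/- and 0 in *Prep*+/-. Whether libraries of these comparisons were paired is not known from the labels. Beside the calls named here and those of *Csf1* and *Csf2rb* given with their results, the fit with the block changed no other call of the fit as reported. Against the same libraries without the block it changed more. *Csf1r* and *Csf3r* in *Prep*-/- M2 against M0 had an adjusted p of 0.064 and 0.0698 without it and 0.0248 and 0.00676 with it. *Csf3r* and *Csf2ra* in *Prep*-/- M1 against M0 were likewise called only with it, and *Csf2rb2* in *Prep*-/- M1 against M2 only without it.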
